A study of Mus musculus with 8 samples.

Results

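Cyba, Ncf1, Ncf4 and Rac2 are genes of the phagocyte NADPH oxidase, and their chromatin loops were followed in HPC-7, a line of mouse blood progenitors that grows in stem cell factor. A loop was taken as theirs when one of its 5000-base bins held the canonical start site of the gene in the GENCODE annotation of the mouse genome build GRCm39. In all 4 deposited lists together, 90 loops of 214313 met this rule, at 4 of 21757 protein-coding genes. The loops had been called from H3K27ac HiChIP, an assay that pulls down chromatin with acetylated lysine 27 of histone H3, a mark of active promoters and enhancers, ligates neighbouring ends and sequences the joined pieces.

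The cells carried either p42, the full-length form of the transcription factor CEBPA, or p30, the shorter form that lacks amino-terminal transactivation domains of p42. Both forms were brought in with a retroviral vector and the lines were sorted for its fluorescent reporter, so each line is a sorted pool that overexpresses 1 form in a progenitor whose own CEBPA level is low, per the study's methods. In the main HPC-7 lines of the methods each form was fused to ERT2, a hormone-binding domain that lets 4-hydroxytamoxifen control its entry into the nucleus; the labels of the HiChIP libraries name neither the fusion nor the hormone. Cells of each line stayed untreated (UT) or received LPS, a bacterial lipopolysaccharide sensed by Toll-like receptor 4, at 100 ng/mL for 2 h, which made 4 groups of 2 replicates and 8 libraries.

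The oxidase of neutrophils and macrophages transfers electrons from NADPH across a membrane to oxygen and so makes the superoxide used to kill microbes. Its membrane core consists of the catalytic subunit encoded by Cybb and its partner, encoded by Cyba. On activation, cytosolic subunits, among them those encoded by Ncf1 and Ncf4, move to this core together with a Rac GTPase, of which Rac2 is the form found mainly in blood cells. Loss of a core or cytosolic subunit causes chronic granulomatous disease in humans.

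The replicates of a group were pooled in 1 list, so there was no spread between replicates, every test below compared pooled libraries and not conditions, and every interval covers counting error only. The lists differed in length, and the p42 UT list stood apart with 158233 loops against 78591 to 94609 in the others. Bins with an H3K27ac peak had the highest mean coverage in p42 UT (2911), the lowest in p42 LPS (1939), and 2406 and 2239 in p30 without and with LPS. The part of list length and coverage in the loop numbers of the 4 genes was not tested. Loop numbers are therefore given as deposited and again after each list was cut to its 78591 loops of smallest q-value, called lists of equal size here. Marker genes were set beside the labelled cell type, and 8 of 8 progenitor markers had a promoter loop in every list. In any list, 3 of 4 macrophage, 1 of 3 T cell and 2 of 3 B cell markers had a loop. So did 1 of 4 hepatocyte and fibroblast markers. Over all start-site bins of protein-coding genes, 9411 of 20359 had a loop in some list. The macrophage marker Adgre1 and the B cell marker Cd79a also had loops in every list.

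The 4 promoters are shown because each lies in a bin that carried an H3K27ac peak in every list and anchored loops in every list. The sequences are the 250 bases before the start site in GRCm39, written 5′ to 3′ along the gene's strand. Capitals mark GAGGAAGT, the letters of a binding site for PU.1, a transcription factor of myeloid and B cells, on either strand.

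Cyba promoter, chr8:123159707-123159956, minus strand: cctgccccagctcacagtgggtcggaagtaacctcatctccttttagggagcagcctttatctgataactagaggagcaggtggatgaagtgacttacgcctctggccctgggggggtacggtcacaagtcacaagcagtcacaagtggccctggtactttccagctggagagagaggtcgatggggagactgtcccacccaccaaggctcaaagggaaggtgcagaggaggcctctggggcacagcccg
Ncf1 promoter, chr5:134258480-134258729, minus strand: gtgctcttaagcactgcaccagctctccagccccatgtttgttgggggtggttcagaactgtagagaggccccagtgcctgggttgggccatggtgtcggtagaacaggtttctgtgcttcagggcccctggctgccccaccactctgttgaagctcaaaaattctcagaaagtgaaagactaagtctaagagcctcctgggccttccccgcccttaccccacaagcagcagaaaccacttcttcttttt
Ncf4 promoter, chr15:78128732-78128981, plus strand: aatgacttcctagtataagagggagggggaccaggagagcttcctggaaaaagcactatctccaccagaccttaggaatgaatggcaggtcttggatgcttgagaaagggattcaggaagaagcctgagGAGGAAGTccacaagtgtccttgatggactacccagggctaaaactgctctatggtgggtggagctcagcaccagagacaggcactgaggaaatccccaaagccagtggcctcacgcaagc
Rac2 promoter, chr15:78457430-78457679, minus strand: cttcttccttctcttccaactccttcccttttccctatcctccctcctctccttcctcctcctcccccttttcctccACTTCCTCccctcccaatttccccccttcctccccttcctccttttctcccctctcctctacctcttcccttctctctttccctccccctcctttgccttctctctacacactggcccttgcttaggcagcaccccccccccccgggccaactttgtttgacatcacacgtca

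GAGGAAGT stood 121 bases before the start site of Ncf4 and, as ACTTCCTC on the reverse strand, 173 bases before that of Rac2. These letters occurred in 2.08% of all 21757 promoters of this length. No match to TTGCNNAA (CEBP type, in 9.34% of promoters), TGANTCA (AP-1 type, 6.18%) or TGATGCAA (CEBP and ATF composite type, 0.887%) was found in the 4 windows on either strand, which says only that these letters are not there. None of these motifs contains another. The promoters had a GC content of 58.4% for Cyba, 54.4% for Ncf1, 52.4% for Ncf4 and 57.2% for Rac2, with 5, 2, 1 and 2 CpG dinucleotides.

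Loops at the start sites were most numerous in the p42 UT list for each of the 4 genes. Cyba had 6 loops without and 14 with LPS in p30 cells, and 21 and 8 in p42 cells. Ncf1 had 13, 16, 22 and 16 loops in the same order, which is kept for every series of 4 values from here on: p30 UT, p30 LPS, p42 UT, p42 LPS. Ncf4 had 3, 10, 16 and 5 loops. Rac2 had 7, 13, 15 and 5 loops. Ncf1 thus held the most loops in every list, and Ncf4 the fewest in the p30 lists. Among start-site bins with any loop, Ncf1 lay at the 94.9 to 97.5 percentile of loop number, whereas Ncf4 ranged from the 44.8 percentile in p30 UT to the 90.4 percentile in p42 UT.

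**Figure D1:**
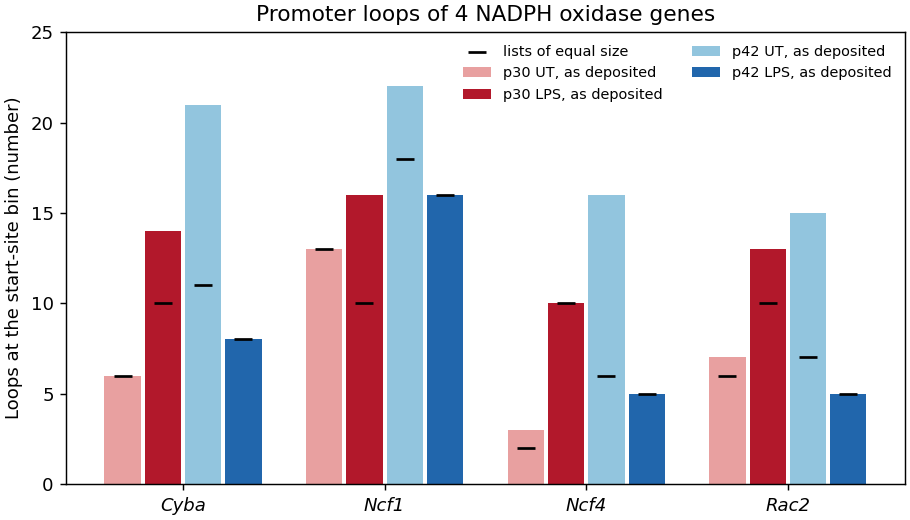
Number of loops at the start-site bin of each gene (vertical axis) in the 4 pooled lists, as deposited (bars) and in lists of equal size (black dashes). Every gene has its tallest bar in p42 UT, with 21, 22, 16 and 15 loops, and in p42 UT every dash, at 11, 18, 6 and 7, lies below its bar.

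More loops in p42 UT than in p30 UT were found at 4 of 4 genes, while 81.3% of all start-site bins with a loop in either list went the same way. In lists of equal size the 4 genes still had more, with 11 against 6 for Cyba, 18 against 13 for Ncf1, 6 against 2 for Ncf4 and 7 against 6 for Rac2, and here 41.3% of all start-site bins did. Bins with equal numbers in both lists lower this share and the similar shares below. At equal size 7 of 8 progenitor markers had more in p42 UT and 0 fewer, and of 11 oxidase regulators 4 had more and 3 fewer. After LPS the direction turned: 3 of 4 genes had fewer loops in p42 than in p30, as did 57.9% of start-site bins, and Ncf1 had 16 in both. In lists of equal size, Cyba had 8 against 10, Ncf4 5 against 10 and Rac2 5 against 10, whereas Ncf1 had 16 against 10, and 46.1% of start-site bins had fewer in p42.

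With LPS, p30 cells had more loops at 4 of 4 genes as deposited, beside 52.4% of all start-site bins, and p42 cells had fewer at 4 of 4, beside 86.9%. Both changes met at 4 of 4 genes and at 39.3% of start-site bins. In lists of equal size, Cyba rose from 6 to 10 loops, Ncf4 from 2 to 10 and Rac2 from 6 to 10 in p30, but Ncf1 went from 13 to 10, against 41.8% of start-site bins with more. In p42 all 4 genes had fewer at equal size, from 11 to 8 for Cyba, 18 to 16 for Ncf1, 6 to 5 for Ncf4 and 7 to 5 for Rac2, beside 45.6% of start-site bins. More in p30 together with fewer in p42 was then seen at 3 of 4 genes and at 16.1% of start-site bins. With 1 pooled list per group, these differences carry no test.

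Most of the loops were not shared by all lists, as over all genes. Counting the loop between Ncf4 and Rac2 at both genes, 19 loops were listed in p42 UT alone, 11 in p30 LPS alone, 3 in p42 LPS alone and 2 in p30 UT alone, and 13 were in p30 LPS and p42 UT and nowhere else. Loops in all 4 lists numbered 11 of 90, or 12.2%, near the 14.5% over all 214313 loops; 2 belonged to Cyba, 5 to Ncf1, 1 to Ncf4 and 3 to Rac2. A pair of bins missing from a list did not reach a q-value of 0.01 there, and its contacts are then unknown.

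**Figure D2:**
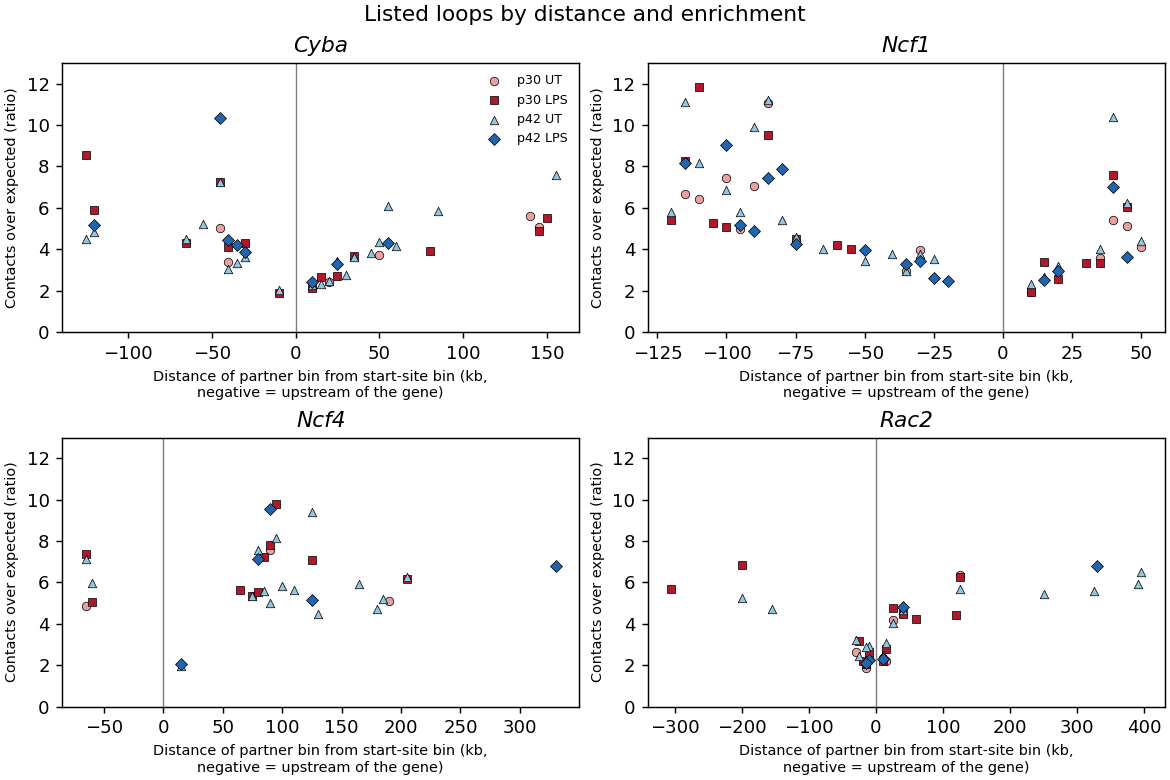
Contacts over the caller's expected count (vertical axis, ratio) against the distance of each partner bin from the start-site bin in kb, negative upstream of the gene (horizontal axis), for every listed loop of the 4 genes, with 1 symbol per list. Ncf1 partners lie within 120 kb, most Ncf4 partners lie downstream, and the Rac2 loops in every list, next to the gene, have low ratios of 1.84 to 2.94 while other Rac2 loops reach as far as 395 kb.

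Cyba, which encodes the membrane partner that stabilises the catalytic subunit, lies on the minus strand at chr8:123151503-123159706. Its 25 partner bins, 9 upstream and 16 downstream, all carried an H3K27ac peak in at least 1 list, and 6 of them held a start site: those of Zfpm1, Zc3h18, Il17c, Snai3, Rnf166 with Ctu2, and Piezo1. The distance between bins ran from 10 to 155 kb, and 13 partners lay within 50 kb. Zfpm1 encodes FOG-1, a cofactor of GATA factors, and its start-site bin was joined to Cyba in p30 LPS alone, with 10 contacts over 150 kb.

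The loops of Cyba found in every list ran to neighbouring bins 40 and 45 kb upstream, over Rnf166, a ubiquitin ligase gene, and Ctu2, a tRNA modification gene. At 45 kb, the bin with both their start sites had 22, 28, 36 and 45 contacts. This was 5.03, 7.26, 7.25 and 10.3 times the caller's expected count. At 40 kb the contacts were 16, 17, 17 and 22. Both pairs were thus most enriched in p42 LPS, although the coverage of the 45 kb partner bin was lowest there, at 2943 against 4165, 3477 and 4920. The bin of Il17c, 10 kb downstream, was missing from the p30 UT list and had 74, 89 and 90 contacts in the other 3.

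Ncf1 encodes p47phox, the organizer that brings the cytosolic subunits to the membrane, and lies on the minus strand at chr5:134249114-134258479 between Gtf2ird2 and Gtf2i, both genes of the TFII-I family of transcription factors. Of its 27 partner bins 25 carried a peak, 19 lay upstream and 8 downstream, all within 120 kb, and 3 held start sites, those of Rcc1l, Gtf2ird2 and Gtf2i. Partners formed nearly unbroken runs over Gtf2ird2 on one side and over Gtf2i and the region beyond it on the other.

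The bin with the Gtf2i start site, 85 kb upstream, had 35, 26, 38 and 20 contacts with Ncf1. These were 11.05, 9.50, 11.2 and 7.47 times expected, the highest ratio of Ncf1 in p30 UT and p42 UT. Downstream, the bin 40 kb away inside Gtf2ird2 had 29, 34, 64 and 33 contacts, with p42 UT highest. The bin of the Gtf2ird2 start site, 45 kb downstream, had 28, 28, 39 and 17. The remaining partners in every list lay 100 and 115 kb upstream, beyond Gtf2i in a stretch without protein-coding genes, with 10 to 18 and 13 to 24 contacts. In that stretch the pair at 110 kb reached 11.9 times expected in p30 LPS with 22 contacts, against 13 and 18 contacts in p30 UT and p42 UT, and was not listed in p42 LPS.

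The Gtf2i partner bin is shown in part because it held 6 matches to TTGCNNAA, more than the 95th percentile of 5 among 31309 bins with a peak in all 4 lists and without gaps in the reference; the median was 2, and 84.7% of these bins held at least 1. The matches that lie outside annotated UTRs are printed with 20 bases on each side, capitals marking the match on either strand.

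Ncf1 partner bin at Gtf2i, chr5:134340173-134340220, plus strand: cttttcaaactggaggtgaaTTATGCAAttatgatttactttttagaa
Ncf1 partner bin at Gtf2i, chr5:134342159-134342206, plus strand: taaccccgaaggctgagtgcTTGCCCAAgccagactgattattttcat
Ncf1 partner bin at Gtf2i, chr5:134344140-134344187, plus strand: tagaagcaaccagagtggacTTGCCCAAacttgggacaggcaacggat

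The first pair lies in introns of Gtf2i and the last lies upstream of it, in an exon of Gm71534, which is not annotated as protein-coding. The same bin held 1 match to TGANTCA. No TGATGCAA was found in the start-site bins of the 4 genes or in their 11 constant partner bins, a motif present in 10.8% of peak bins. These letter matches describe the sequence and are no measure of binding.

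Ncf4 encodes p40phox, which binds phosphatidylinositol 3-phosphate and sustains oxidase activity on phagosomes, and lies on the plus strand at chr15:78128982-78146780. It differed from the other genes in where its partners lay: 17 of its 19 partner bins were downstream and only 1 was within 50 kb, while 10 were 100 kb or more away, a number that Rac2 also had. This difference is a description and was not tested. The partners held the start sites of Csf2rb, the common beta receptor subunit for GM-CSF, IL-3 and IL-5, of Tst with Mpst, both sulfurtransferase genes, of Kctd17 and of Rac2. Its median loop distance was 90, 82.5, 97.5 and 90 kb, against 15 to 40 kb for Rac2.

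The partner of Ncf4 present in every list lay 90 kb downstream inside Csf2rb. It had 16, 16, 12 and 21 contacts, or 7.55, 7.83, 5.01 and 9.53 times expected. The start-site bin of Csf2rb itself was listed in p30 LPS with 16 contacts and in p42 UT with 15. Upstream, the bin 65 kb away was listed in 3 lists with 13, 18 and 20 contacts but not in p42 LPS. The coverage of that bin was 2396, 2057, 2363 and 1458, lowest in the list that lacks the pair.

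The Csf2rb partner bin is shown for its 3 matches to TGANTCA, all TGACTCA in the plus strand and all in introns. The median over peak bins was 1 match, the 95th percentile 4, and 77.2% held at least 1, so 3 matches are within the usual range. The start-site bin of Ncf4 also held 3 such matches, and 4 matches to GAGGAAGT, against a 95th percentile of 2 and 30.4% of peak bins with at least 1.

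Ncf4 partner bin in Csf2rb, chr15:78215053-78215099, plus strand: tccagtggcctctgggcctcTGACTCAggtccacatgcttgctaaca
Ncf4 partner bin in Csf2rb, chr15:78216145-78216191, plus strand: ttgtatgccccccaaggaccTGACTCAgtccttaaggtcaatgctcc
Ncf4 partner bin in Csf2rb, chr15:78218682-78218728, plus strand: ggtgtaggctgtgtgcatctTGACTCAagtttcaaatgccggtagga

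Rac2 encodes the GTPase that completes the active oxidase and also steers actin in leukocytes, and lies on the minus strand at chr15:78443367-78457429, its start site 328447 bases from that of Ncf4. It had 20 partner bins, 8 upstream and 12 downstream, 18 with a peak, and the start sites in them were those of Ncf4, Cyth4, Mfng and Gga1. Its partners split by distance, with 9 within 50 kb and 10 at 100 kb or more. Cyth4 encodes a guanine nucleotide exchange factor for ARF GTPases, and Mfng a glycosyltransferase that modifies Notch.

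The loops of Rac2 in every list stayed next to the gene. The bin 10 kb downstream, inside Rac2, had 137, 112, 125 and 85 contacts. The bin 10 kb upstream had 114, 122, 142 and 69 contacts, and the bin 15 kb upstream had 47, 46, 62 and 33. All 3 were lowest in p42 LPS. Ratios to expected were modest at this short range, between 1.84 and 2.94 over these loops and lists. A bin 125 kb downstream in Tmprss6 was joined to Rac2 with 14, 14 and 12 contacts in the other 3 lists at 5.66 to 6.37 times expected, and was not listed in p42 LPS.

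Ncf4 and Rac2 lie on the same chromosome, and their start-site bins were joined directly, over 330 kb, in p42 LPS alone, with 9 contacts and 6.77 times the expected count. A loop between the Rac2 start-site bin and the bin next to that of Ncf4, inside Ncf4, was listed in p42 UT with 8 contacts and 5.58 times expected. In p30 LPS that same bin inside Ncf4 was joined to the bin 15 kb upstream of Rac2, with 8 contacts and 6.07 times expected, and p30 UT listed no loop between these neighbourhoods. Both genes also had 4 partner bins in common, at 65 and 60 kb upstream of Ncf4 and 80 and 205 kb downstream of it. Rac2 reached all 4 of them in p42 UT, 3 of them with 8 contacts and the Tmprss6 bin with 12. The contacts of these pairs in the lists without them are unknown, and no difference was tested.

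The same loops were then compared between lists by their contacts, which asks whether pairs found in every list were used more in one pooled library. For each gene the contacts of its loops in all 4 lists were summed, and the share of the first list was tested against the share over all 31032 such loops by an exact, two-sided binomial test, and p-values were adjusted after Benjamini and Hochberg over 4472 start-site bins.

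**Figure D3:**
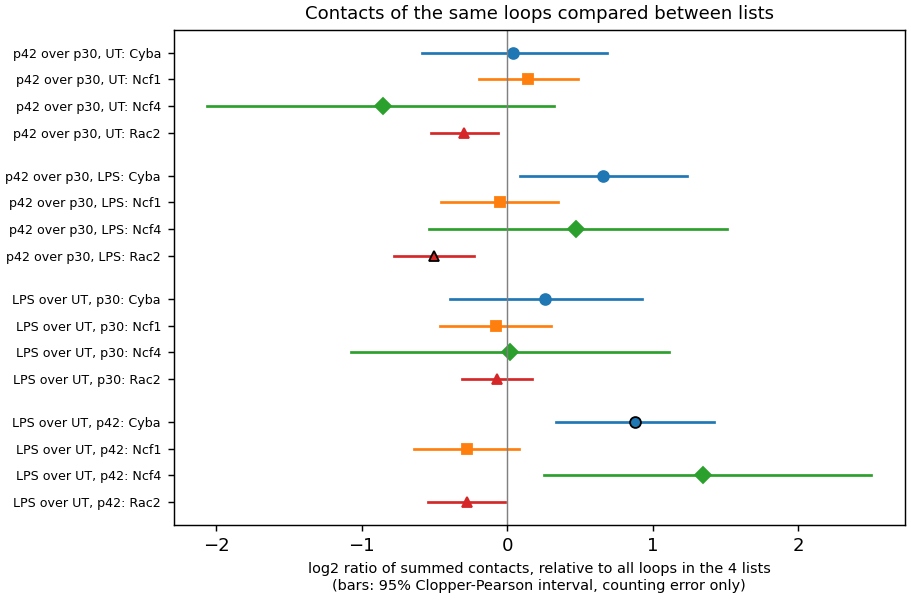
Log2 ratio of summed contacts in the loops present in all 4 lists, relative to the ratio over all such loops (horizontal axis), for each gene and comparison; bars are 95% Clopper-Pearson intervals and black-edged symbols have an adjusted p under 0.05. Rac2 lies left of 0 for p42 over p30 after LPS (-0.50), and Cyba lies right of 0 for LPS over UT in p42 (0.88).

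Rac2 after LPS was lower in p42 than in p30. Its 3 loops had 187 contacts in p42 LPS and 280 in p30 LPS, so p42 held 40.04% (95% interval 35.6 to 44.6) where all loops together gave 48.6%, a log2 ratio of -0.50 with an adjusted p of 0.00695 by the exact binomial test. Of the 4 genes 1 passed here, beside 6.51% of start-site bins. Against the caller's own expected counts, which take the coverage of both bins into account and put the share at 41.3%, the adjusted p was 0.967 (exact binomial test). The call rests on loops of 10 and 15 kb, since no Rac2 loop in all 4 lists was 20 kb or longer.

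In the loops found in every list, Cyba had more contacts with LPS in p42 cells. Its 2 loops had 67 contacts in p42 LPS and 53 in p42 UT, a share of 55.8% (46.5 to 64.9) against 40.8% over all loops, a log2 ratio of 0.88 with an adjusted p of 0.0458 by the exact binomial test. Again 1 of 4 genes passed, beside 2.35% of start-site bins. Over all listed loops of Cyba the contacts were fewer with LPS, 584 in 21 loops in p42 UT and 259 in 8 loops in p42 LPS. With all loops found in both p42 lists the call was kept, at a log2 ratio of 0.49 and an adjusted p of 0.00934 (exact binomial test). It was lost against the share of modelled contacts (0.60, adjusted p = 0.0898, exact binomial test), against the caller's expected counts (0.52, adjusted p = 0.23) and among loops of at least 20 kb (0.88, adjusted p = 0.0558). In p42 against p30 after LPS, Cyba had 67 against 45 contacts, a log2 ratio of 0.66 (0.09 to 1.23) with an adjusted p of 0.163 by the exact binomial test.

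In the remaining comparisons no gene of the 4 passed. For p42 against p30 in UT, beside 7.69% of start-site bins, the log2 ratios were 0.04 for Cyba, 0.14 for Ncf1, -0.85 for Ncf4 and -0.29 for Rac2, the last with an interval of -0.53 to -0.06. The direction of Rac2 turned under other null shares, to 0.06 with modelled contacts and 0.28 with the caller's expected counts. For LPS against UT in p30, beside 3.49%, the ratios lay between -0.08 and 0.26. At an unadjusted p under 0.05, in the exact binomial test, there were 1 of 4 genes for p42 against p30 in UT and 2 after LPS, and 0 for LPS against UT in p30 and 3 in p42, where 20.1%, 16.8%, 13.8% and 12.6% of start-site bins were. Ncf4 rests on a single loop, and its widest interval, -2.06 to 0.32 for p42 against p30 in UT, allows a change in either direction. In p42 with LPS its ratio was 1.35 (0.26 to 2.50), from 21 against 12 contacts, with an adjusted p of 0.197 by the exact binomial test. Also for LPS against UT in p42, Rac2 was at -0.28 (-0.54 to -0.01), from 187 against 329 contacts, and Ncf1 at -0.27 (-0.64 to 0.08), from 103 against 181. Neither passed after adjustment, though both did, at -0.55, with the null share from modelled contacts.

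Loop by loop, 0 of the 11 constant loops passed in any of the 4 comparisons with the exact binomial test adjusted over 31032 loops. The background was 2.36% for p42 against p30 in UT, 1.03% for the same after LPS, 0.503% for LPS against UT in p30 and 0.583% for LPS against UT in p42. At an unadjusted p under 0.05 there were 2, 2, 0 and 3 loops in that order, beside 13%, 8.89%, 7.83% and 8.34% of all loops. The nearest to the threshold were both at Rac2: the loop 10 kb downstream in UT (125 contacts in p42 against 137 in p30, log2 ratio -0.57, adjusted p = 0.0551, exact binomial test) and the loop 10 kb upstream after LPS (69 against 122, log2 ratio -0.74, adjusted p = 0.0567, exact binomial test).

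Coverage of the start-site bins gives the H3K27ac HiChIP signal at the promoters themselves. The coverage of Cyba was 5276, 7353, 8171 and 6357. Ncf1 had 6194, 6658, 8888 and 4703. Ncf4 had 5097, 6193, 7043 and 4450. Rac2 had 8554, 9328, 8828 and 4679. Ncf1, Ncf4 and Rac2 were lowest in p42 LPS, the list with the lowest mean peak coverage, while Cyba was lowest in p30 UT. Rac2 was the highest of the 4 in both p30 lists, at the 94.4 and 94.8 percentile of 5507 start-site bins with a peak in all lists, and Cyba the highest in p42 LPS, at the 93.6 percentile.

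**Figure D4:**
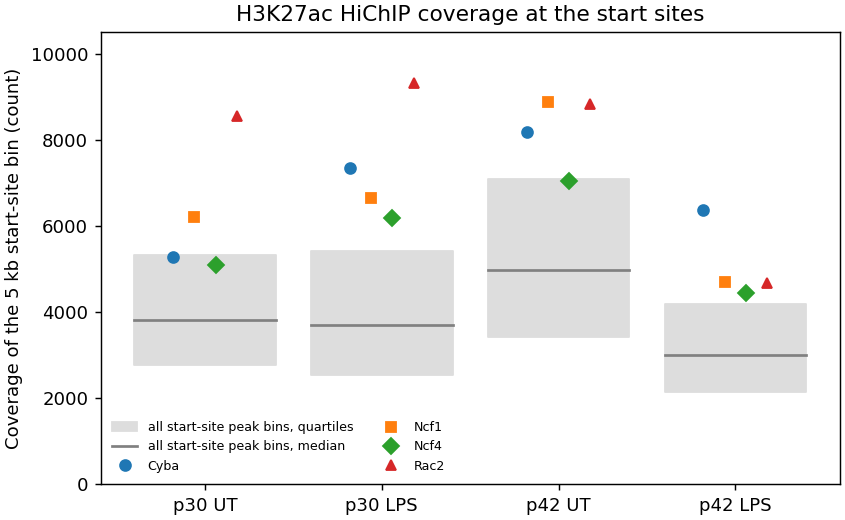
Coverage of the start-site bin of each gene (vertical axis, count) in the 4 pooled lists, over the quartiles (grey band) and median (grey line) of 5507 start-site bins with a peak in all lists. Rac2 falls from 9328 in p30 LPS to 4679 in p42 LPS, while the median falls from 3702 to 2986.

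To set these against the whole, log2 ratios of coverage were centred on the median ratio over 31321 bins with a peak in all 4 lists, and a bin past 1.5-fold was counted. Rac2 after LPS was the clearest: its ratio of p42 to p30 was 0.502 as deposited and 0.584 after centring, a log2 ratio of -0.78, lower than all but 0.636% of start-site bins. It was 1 of 4 genes past 1.5-fold downward, beside 3.63% of start-site bins. With LPS in p30, Cyba was 1.51-fold higher after centring, a log2 ratio of 0.59, the 97.8 percentile, and 1 of 4 genes past 1.5-fold upward beside 2.27%. That value sits at the limit and falls to 0.53 when centred on start-site bins, below 1.5-fold.

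No gene of the 4 passed 1.5-fold in p42 against p30 in UT, beside 4.99% of start-site bins in either direction, or in LPS against UT in p42, beside 1.76%. In the former the centred log2 ratios were 0.36 for Cyba, 0.25 for Ncf1, 0.19 for Ncf4 and -0.23 for Rac2. In the latter they were 0.24, -0.32, -0.06 and -0.31, and Ncf4 was 0.07 when centred on start-site bins, while Cyba was -0.10 per modelled contact. Coverage per bin is large, so counting error is small, but the spread between replicates is unknown and no test was made.

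The start sites with the most similar coverage profile over the 4 lists, each list centred on its median, included those of Fkbpl and Aars1 for Cyba, with a root mean square difference of 0.022 and 0.023 in log2. For Ncf1 they were Alyref2, Pno1 with Dnaaf10, and Kdm4a (0.014 to 0.016), for Ncf4 Hook2, Supv3l1 and Ppp1r11 (0.015 to 0.020), and for Rac2 they included Egr1 and Mtmr12 (0.020 and 0.027). With 4 points per profile and 5507 start sites to choose from, small differences are common.

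Among the other subunits, Cybb, the catalytic subunit, had no loop at its start-site bin in any list, so its coverage there is unknown. Rac1, the broadly expressed relative of Rac2, had 8, 11, 16 and 10 loops, or 8, 10, 10 and 10 at equal size. Cybc1, a chaperone of the membrane core, had 0, 1, 2 and 0, and the same numbers at equal size.

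Of 11 regulators of the oxidase 9 had a loop in some list, and Prkcb and Fpr1 had none. Over all start-site bins 9411 of 20359 had a loop in some list, a share to set beside each such count here. As deposited 8 had more loops in p42 UT than in p30 UT and 0 fewer, at equal size 4 more and 3 fewer, and after LPS 2 more and 5 fewer in p42 at equal size. Over all start-site bins with a loop in either list, 81.3% had more in p42 UT as deposited and 41.3% at equal size, and 46.1% had fewer in p42 after LPS at equal size. Vav1, an exchange factor for Rac, had 16, 20, 25 and 19 loops, or 16, 18, 18 and 19 at equal size. Pik3cg, the kinase subunit downstream of G protein-coupled receptors, had 4, 7, 19 and 4, or 4, 5, 7 and 4 at equal size. Of 7 oxidase genes of other tissues 2 had a loop, Noxo1 and Noxa1, beside the same 9411 of 20359 start-site bins. Nox1, Nox3, Nox4, Duox1 and Duox2 had none. Of 11 genes that handle superoxide and peroxide 10 had a loop, all but Cat, with 8 more and 1 fewer in p42 UT and 3 more and 5 fewer in p42 LPS than in p30 at equal size, beside the same 41.3% with more in UT and 46.1% with fewer after LPS. Gpx1, a glutathione peroxidase gene, had 11, 11, 20 and 8 loops, or 11, 11, 14 and 8 at equal size.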

How the data were processed

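H3K27ac HiChIP had been done in duplicate for 4 groups. Per the study's methods and the submitters' processing notes, reads were mapped to mm39 with BWA 0.7.17, pairtools recorded the ligation pairs and removed duplicates, and FitHiChIP called the interactions. The authors deposited 1 list per group, with bins of 5000 bases and q-values under 0.01; how replicates were pooled is not stated. The deposited contacts and coverage are raw counts, and the expected count and the deposited contact probability, a fraction, are the caller's estimates. Deposited p-values and q-values are also the caller's. The ratio of contacts to expected counts was computed here from the deposited counts, and modelled contacts (14503330 to 18999991 per list) from expected count and probability. The caller lists significant pairs alone and corrects for coverage, which can take up part of a real difference in acetylation.

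The members and lists of genes were chosen with earlier results of these data known. Genes named are the members, fixed lists of subunits, regulators, other oxidases, peroxide handling and cell markers, genes with a start site in a partner bin, and the 3 nearest coverage profiles; Gm71534 and the genes lying over a partner bin were named after their values were seen. Tests were made with Python 3.11.15 and scipy 1.17.1. The exact binomial test with its adjustment was tried loop by loop on simulated counts for p42 UT against p30 UT. There 100% of 200 loops changed 3-fold among 20000 were recovered and 4.31% of calls were false. The changed loops were picked only among loops with contacts well above the list median of 20. Smaller changes, changes at loops with fewer contacts, sums per gene and Clopper-Pearson intervals were not simulated. Alternatives were equal list size, a q-value under 0.001, at least 5 contacts, at least 20 kb, 1 more bin on each side, other null shares, loops in both lists of a pair and other centring. All 21 chromosomes fitted GRCm39, from which the sequences and GENCODE start sites were read. RefSeq's promoter table was not used, because its build differs. Some genes that this rule names are not reported here.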

Additional observations from a re-analysis of the deposited data

Results flagged for a closer look

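The effect of LPS on the number of promoter loops ran in opposite directions in p30 and p42 cells at each of the 4 genes, and the difference was not tested, since each group is 1 pooled list. Taken as the log2 ratio of LPS to UT in p30 minus that in p42, it was 3.42 for Ncf4 (1.74 in p30 and -1.68 in p42), 2.61 for Cyba (1.22 and -1.39), 2.48 for Rac2 (0.893 and -1.58) and 0.759 for Ncf1 (0.3 and -0.459). Over all start-site bins 39.3% went this way. In lists of equal size the values were 2.58 for Ncf4, 1.20 for Cyba and 1.22 for Rac2, whereas Ncf1 was lower with LPS in both (-0.38 and -0.17), so 3 of 4 genes went this way, beside 16.1% of start-site bins. The p42 UT list, which is the longest, enters each of these values.

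Centred coverage of the start-site bin also moved in opposite directions with LPS at 3 genes, again without a test. The p30 value minus the p42 value was 0.55 for Rac2 (0.236 and -0.313), 0.531 for Ncf1 (0.215 and -0.316) and 0.452 for Ncf4 (0.392 and -0.0599), on the log2 scale. Of 5507 start-site bins, 47.1% were likewise up in p30 and down in p42. Centred on start-site bins, Ncf4 in p42 was 0.07, so that 2 of 4 genes moved in opposite directions, beside 24.7% of start-site bins.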

How the results depend on the processing

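No paired analysis was possible because the deposited lists pool the replicates, and for the same reason no replicate could be left out. In lists of equal size the ratio of the 4 genes' loops for p42 over p30 in UT was 1.56 and for LPS over UT in p42 0.81, closer to 1 than as deposited, and the Ncf1 difference for LPS in p30 turned to -3 loops (-2 at a q-value under 0.001). With the null share from modelled contacts, 1 gene passed the contact test for p42 over p30 in UT, Ncf1 (0.50), and 2 for LPS over UT in p42, Rac2 and Ncf1 (both -0.55), while Cyba was lost; 30.1% and 25.1% of all start-site bins passed with this share. With the caller's expected counts, 0 passed for p42 over p30 after LPS and 0 for LPS over UT in p42 (2.62% and 8.52% of start-site bins), as among loops of at least 20 kb (0 and 0, beside 3.54% and 1.73%), where Rac2 had no loop to test. Coverage per modelled contact put 3 genes past 1.5-fold for p42 over p30 after LPS, 2 for LPS over UT in p30 and 2 for LPS over UT in p42, beside 31.0%, 8.90% and 25.1% of start-site bins, and centring on start-site bins left 0 for LPS over UT in p30 (1.85%).

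Log2 ratios of contacts turned sign in these cases, none of which passed. For p42 over p30 in UT, Cyba was -0.0088 with loops in both lists of the pair, and Rac2 was 0.063 with modelled contacts and 0.28 with expected counts. For LPS over UT in p30, Rac2 was 0.22 and 0.069 and Ncf1 0.21 and 0.11 under the same 2 settings. The cause was not tested. Few contacts per pair, 8 to 45 for most loops, limit what can be seen in single loops.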
